A study of Mus musculus with 6 samples.

Results

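The CatSper genes encode the sperm calcium channel and its accessory proteins, and 10 of them were followed here among the 25165 gene symbols of each library: the pore subunits Catsper1, Catsper2, Catsper3 and Catsper4, the auxiliary transmembrane subunits Catsperb, Catsperd, Catsperg1 and Catsperg2, and the cytoplasmic partners Catsperz and Efcab9. They were chosen by symbol and not by a cut on their values, though earlier results of these data were known. The data are 6 RNA-seq libraries of testis from C57BL/6 mice at 8 weeks of age: 3 are titled KO, for deficiency of NR_038002, the long non-coding RNA that the series calls Teshl, and 3 are titled WT. The genotype field of the labels says the opposite of the titles for every library, and the sources used here do not say how the allele was made. Libraries were grouped by title, and differences are given as KO-titled minus WT-titled. The labels do not say whether each library is a different mouse, so a p-value here reflects only how far the 6 libraries differ, and that spread may be technical.

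CatSper is a calcium channel of the sperm tail that sits in lines along the principal piece. It opens when the inside of the sperm becomes alkaline, and the calcium that enters drives the strong, asymmetric beat called hyperactivation, which sperm need to reach and penetrate the egg. Its genes are transcribed in male germ cells, spermatids among them, and male mice without a pore subunit are infertile. In whole testis, fewer of these cells and less RNA per cell cannot be told apart.

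The targeted gene went with the titles. The non-coding gene 1700027A15Rik was at 0.385 FPKM (fragments per kilobase of transcript, scaled to library depth) in KO-titled replicate 1, listed at 0 in replicates 2 and 3, and at 1028, 989 and 1081 FPKM in WT-titled libraries. Library totals were 393622 to 413604 FPKM, and depth, estimated from the smallest steps between values, was 27300000 to 39100000 fragments a library. Testis markers were present in each library: 10 condensing spermatid genes summed to 36432 to 38674 FPKM in KO-titled libraries and 31106 to 35149 FPKM in WT-titled libraries. Of 5 genes of the epididymal epithelium, Lcn5 was listed at 0 throughout, and the whole list summed to 2.48 to 3.07 FPKM over the 6 libraries.

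None of the 10 CatSper genes passed the test of a difference between the groups that was run on all genes. In limma on log2(FPKM + 1) with Benjamini-Hochberg adjustment over 12952 tested genes, 0 of the 10 passed an adjusted p of 0.05, where 1.15% of all tested genes did, 0.788% higher and 0.363% lower in KO-titled libraries. Their adjusted p-values ran from 0.341 (Catsperg1) to 0.924 (Catsperd). At an unadjusted p under 0.05 there was 1, Catsperg1, beside 14.3% of all tested genes, 5.38% with KO-titled libraries higher and 8.89% with them lower. The fitted log2 fold changes lay between -0.03 (Catsper2) and 0.18 (Catsperg1), with a median of 0.09 beside -0.04 over all tested genes. The sign was positive for 8 of the 10 genes and for 34.3% of all tested genes. With equal library totals the sign was positive for 7 members and 31.0% of all tested genes. With upper-quartile scaling it was positive for 9 members and 43.5% of all, and with median-of-ratios scaling for 10 members and 47.8% of all. The median of the members was 0.03 with KO-titled replicate 2 left out, 0.05 with WT-titled replicate 1 left out and 0.15 with KO-titled replicate 1 left out. All 10 members entered the test, for which a gene needed a group mean of 1 FPKM, and none came near that floor.

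**Figure D1:**
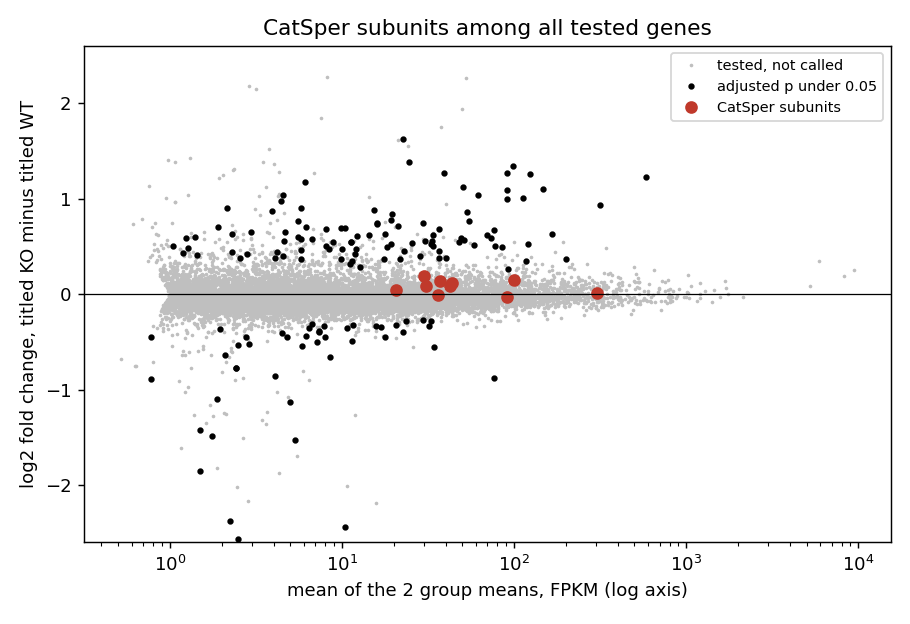
Each point is 1 of the 12952 tested genes, with its mean level in FPKM on a log axis and its log2 fold change, KO-titled minus WT-titled. Black points passed an adjusted p of 0.05 in limma, and 7 genes beyond 2.6 on the vertical axis are not drawn. The 10 CatSper subunits, in red, lie between -0.03 and 0.18, among genes that were not called.

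The genes lie on 8 autosomes, none on X or Y, the latter being the chromosome whose multicopy genes the title of the study concerns. By GENCODE M21 symbols, 15.7% of tested X and Y genes and 0.438% of tested autosomal genes were called. In GRCm38, the assembly of mm10, Catsper1 is on chromosome 19 (5335741 to 5344280, plus strand, 12 exons) and Catsperz on the same chromosome (6922371 to 6925380, minus strand, 5 exons). Catsperg1 and Catsperg2 both lie on the minus strand of chromosome 7, at 29181321 to 29214035 and 29697219 to 29727032, with 29 exons each. Catsper2 is on chromosome 2 (121392631 to 121413792), Catsper3 on chromosome 13 (55784568 to 55808998), Catsper4 on chromosome 4 (134211970 to 134227383), Catsperb on chromosome 12 (101404653 to 101626009), Catsperd on chromosome 17 (56628143 to 56664456) and Efcab9 on chromosome 11 (32522751 to 32532081). Exons of Catsper2 overlap those of Pdia3 on the opposite strand, and exons of Catsperz overlap those of the potassium channel gene Kcnk4 on the same strand. Kcnk4 was listed at 0.0148 to 0.127 FPKM, and Pdia3, a disulfide isomerase gene of most cells, at 57.1 to 62.2 FPKM. Whether strand was used in the quantification is not given here.

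Catsperg1 and Catsperg2 are near copies, so the way the authors' quantifier divided their fragments bears on their values. Their longest coding sequences in GENCODE M21 aligned over 3432 bases with 122 mismatches, an identity of 96.45%. The alignment held 10 identical runs of at least 100 bases, the longest of 341 bases. Its first 300 bases are printed because a fragment inside them has no base that tells the genes apart. They are coding bases 1945 to 2244 of each gene, spliced from 3 exon pieces within chr7:29190537-29191672 for Catsperg1 and chr7:29705393-29706527 for Catsperg2, minus strand, GRCm38:
Catsperg1 and Catsperg2: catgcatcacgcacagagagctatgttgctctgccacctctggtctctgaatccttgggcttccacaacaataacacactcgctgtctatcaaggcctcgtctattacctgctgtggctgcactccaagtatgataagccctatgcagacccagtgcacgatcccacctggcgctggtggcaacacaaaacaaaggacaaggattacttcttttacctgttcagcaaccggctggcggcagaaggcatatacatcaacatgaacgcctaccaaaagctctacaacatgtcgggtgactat
The second pair is the stretch of 120 bases within 1 exon in which they differ most, at coding bases 1630 to 1749, with 18 differing bases in capitals (chr7:29195422-29195541 for Catsperg1 and chr7:29710018-29710137 for Catsperg2):
Catsperg1: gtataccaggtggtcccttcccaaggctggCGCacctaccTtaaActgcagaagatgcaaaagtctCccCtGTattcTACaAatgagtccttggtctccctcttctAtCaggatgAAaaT
Catsperg2: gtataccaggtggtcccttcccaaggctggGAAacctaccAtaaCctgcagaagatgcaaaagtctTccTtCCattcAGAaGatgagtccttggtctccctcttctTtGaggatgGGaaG
Of the other members, none had a near copy elsewhere (at least 90% identity over at least 50% of its longest coding transcript), apart from the shared exons of Catsperz and Kcnk4.

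The pore is a ring of the products of Catsper1, Catsper2, Catsper3 and Catsper4, each of which is needed for the current. Catsper1, whose protein has a histidine-rich start that lies inside the cell, was at 40.3, 48.0 and 43.3 FPKM in KO-titled replicates 1 to 3 and at 39.6, 40.4 and 43.5 FPKM in WT-titled replicates 1 to 3. The groups overlapped, with KO-titled replicate 2 the highest (log2 fold change 0.09, 95% interval -0.07 to 0.25, limma adjusted p = 0.569). Catsper2 was at 85.5, 93.1 and 91.7 FPKM in KO-titled libraries and at 88.9, 96.2 and 91.2 FPKM in WT-titled libraries. Its highest library was WT-titled replicate 2 and its lowest KO-titled replicate 1. The log2 fold change was -0.03 with an interval of -0.16 to 0.09 (limma adjusted p = 0.795), and it was 0.01 with median-of-ratios scaling.

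As deposited, Catsper3 was the member of the pore whose groups did not overlap, by a narrow margin. It stood at 36.2, 44.1 and 37.1 FPKM in KO-titled libraries and at 35.9, 33.9 and 36.0 FPKM in WT-titled libraries. The nearest libraries of the groups, KO-titled replicate 1 and WT-titled replicate 3, were thus at 36.2 and 36.0 FPKM. With equal library totals the groups overlapped: KO-titled replicate 1 then lay below WT-titled replicate 1 (totals of 398081 and 393622 FPKM). Its log2 fold change was 0.14 (interval -0.03 to 0.32, limma adjusted p = 0.415), and 0.06 without KO-titled replicate 2. Across all tested genes 21.7% had groups without overlap, 5.92% with KO-titled libraries higher, and Catsper3 was the 1 member of the 10. Catsper4 was at 39.6, 52.1 and 45.4 FPKM in KO-titled libraries and at 40.9, 37.3 and 47.5 FPKM in WT-titled libraries. The groups overlapped widely, since WT-titled replicate 3 lay above all but 1 of the libraries titled KO. The log2 fold change was 0.12 with an interval of -0.15 to 0.39 (limma adjusted p = 0.626).

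**Figure D2:**
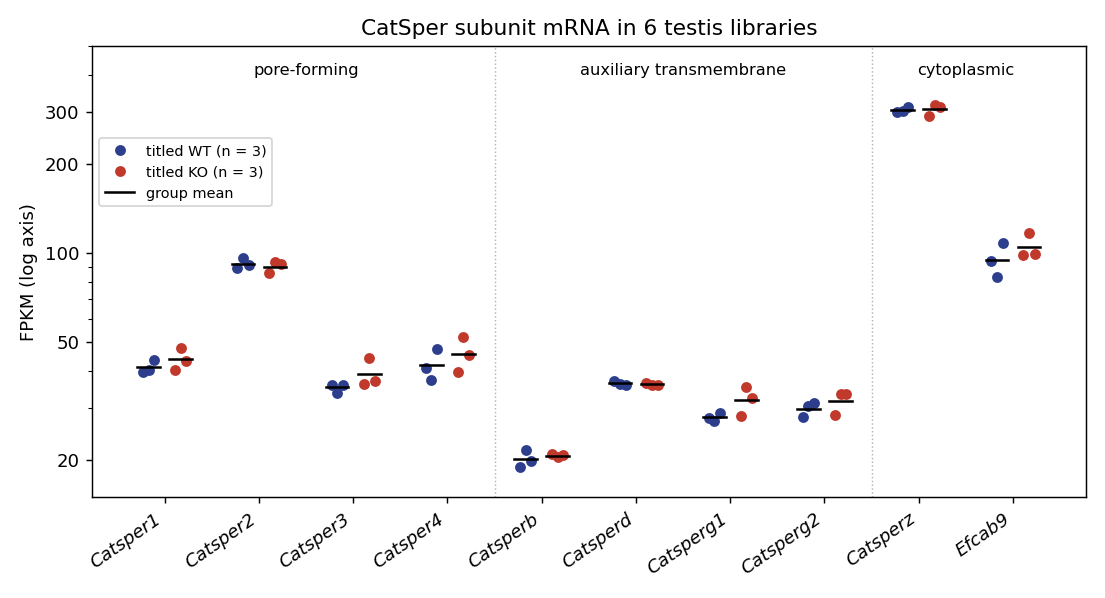
Points are the 6 libraries (3 titled WT in blue, 3 titled KO in red) for each CatSper gene, in FPKM on a log axis, grouped by role, and bars are group means. Catsperz stands at 291 to 315 FPKM and Catsperb at 19.0 to 21.7 FPKM, and within each gene the groups lie close together.

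The pore subunits were not at equal mRNA levels. In the libraries titled WT, Catsper2 was at 92.1 ± 3.73 FPKM, Catsper4 at 41.9 ± 5.16, Catsper1 at 41.2 ± 2.06 and Catsper3 at 35.3 ± 1.22 FPKM (SD, n = 3). FPKM are per length, so these levels can be set side by side, within the error of the gene models used for length. Catsper2 was 2.24 ± 0.144 times Catsper1 in WT-titled libraries and 2.06 ± 0.104 times in KO-titled libraries (SD, n = 3 each). It made up 41.8% to 46.3% of the pore sum in WT-titled libraries and 39.2% to 42.4% in KO-titled libraries, and these shares overlapped. Libraries of Catsper4 and Catsper1 overlapped in both groups, so their order was not resolved. Catsper3 lay below Catsper1 within each of the 6 libraries.

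The auxiliary transmembrane subunits carry large domains outside the cell that form a canopy over the pore. Catsperb, one of them, was at 20.9, 20.5 and 20.8 FPKM in KO-titled libraries and at 19.0, 21.7 and 19.9 FPKM in WT-titled libraries. The libraries titled KO lay within the range of those titled WT (log2 fold change 0.04, interval -0.10 to 0.18, limma adjusted p = 0.758). Catsperd, which is needed for a stable channel complex, was at 36.5, 36.0 and 35.9 FPKM in KO-titled libraries and at 36.97, 36.2 and 36.0 FPKM in WT-titled libraries. In the values as deposited it was the steadiest member, with a range of 0.04 on the log2 scale over all 6 libraries. With equal library totals it deviated from its mean by 0.064 in WT-titled replicate 1 and by -0.043 in KO-titled replicate 2. Its log2 fold change was -0.01 (interval -0.12 to 0.10, limma adjusted p = 0.924), 0.02 with upper-quartile scaling and 0.03 with median-of-ratios scaling.

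Catsperg1 had the largest difference of the 10. It was at 28.1, 35.4 and 32.5 FPKM in KO-titled libraries and at 27.7, 27.1 and 29.0 FPKM in WT-titled libraries, a log2 fold change of 0.18 (SE 0.08, interval 0.004 to 0.37, unadjusted p = 0.0464 and adjusted p = 0.341 in limma). The groups overlapped, because KO-titled replicate 1 lay below WT-titled replicate 3. Without KO-titled replicate 2 the log2 fold change was 0.11 (limma adjusted p = 0.764), and without KO-titled replicate 1 it was 0.27 (limma adjusted p = 0.126). Its near copy Catsperg2 was at 28.4, 33.5 and 33.4 FPKM in KO-titled libraries and at 27.9, 30.6 and 31.2 FPKM in WT-titled libraries (log2 fold change 0.08, interval -0.09 to 0.25, limma adjusted p = 0.606). The sum of the pair depends less on how shared fragments were divided: it was 56.6, 68.9 and 65.9 FPKM in KO-titled libraries and 55.7, 57.7 and 60.2 FPKM in WT-titled libraries. Catsperg1 made up 49.3% to 51.4% of that sum in KO-titled libraries and 47.0% to 49.8% in WT-titled libraries. The values assigned to the pair were thus nearly equal in every library. Whether that split comes from the genes or from how shared fragments were divided was not tested.

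Catsperz and Efcab9 encode a cytoplasmic pair that binds the channel, EFCAB9 being an EF-hand protein that senses calcium and CATSPERZ its partner in keeping the channel in continuous lines. Catsperz had the highest level of all members, at 291, 315 and 312 FPKM in KO-titled libraries and at 298, 301 and 310 FPKM in WT-titled libraries. The groups overlapped, and the interval was among the narrowest (log2 fold change 0.01, interval -0.10 to 0.12, limma adjusted p = 0.919). With equal library totals the fitted value was -0.0017. Efcab9 was at 98.7, 117 and 99.0 FPKM in KO-titled libraries and at 93.7, 82.8 and 108 FPKM in WT-titled libraries. KO-titled replicate 2 was the highest and WT-titled replicate 2 the lowest of its 6 libraries, and the groups overlapped (log2 fold change 0.14, interval -0.10 to 0.39, limma adjusted p = 0.529). The mRNA of Catsperz was 3.23 ± 0.390 times that of Efcab9 in WT-titled libraries and 2.93 ± 0.224 times in KO-titled libraries (SD, n = 3 each).

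Ordered by level in WT-titled libraries, the genes ran from Catsperz (303 ± 6.16 FPKM) through Efcab9 (94.95 ± 12.8), Catsper2 (92.1 ± 3.73), Catsper4 (41.9 ± 5.16), Catsper1 (41.2 ± 2.06), Catsperd (36.4 ± 0.505), Catsper3 (35.3 ± 1.22), Catsperg2 (29.9 ± 1.72) and Catsperg1 (27.9 ± 0.964) to Catsperb (20.2 ± 1.37; SD, n = 3). Of the neighbours in that order, Efcab9 and Catsper2, Catsper4 and Catsper1, Catsperd and Catsper3, and Catsperg2 and Catsperg1 had overlapping libraries, and the other neighbours did not. Overlap of libraries does not cover error in the gene models used for length, or in dividing fragments of Catsperg1 and Catsperg2. Catsperz was 7.38 ± 0.213 times Catsper1 in WT-titled libraries and 6.996 ± 0.377 times in KO-titled libraries (SD, n = 3 each). The 10 genes together summed to 706, 795 and 751 FPKM in KO-titled libraries and 709, 707 and 753 FPKM in WT-titled libraries.

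**Figure D3:**
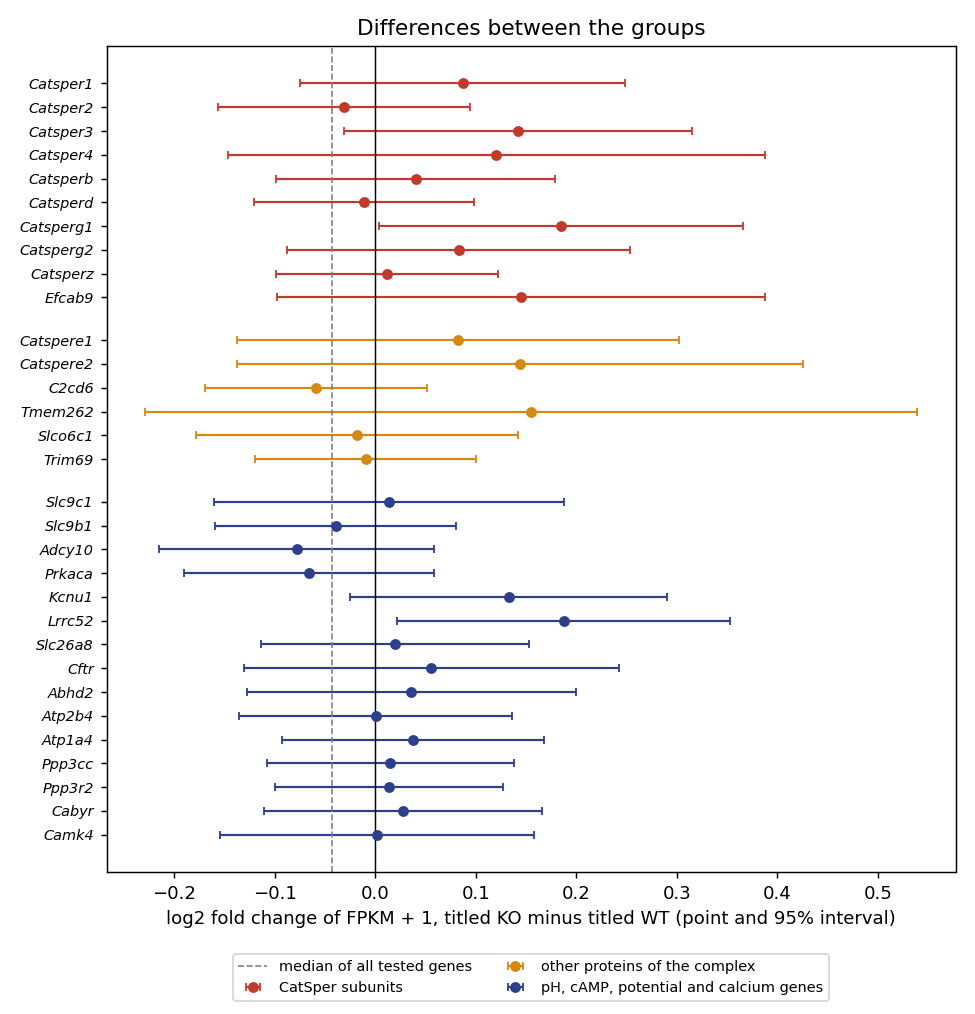
Points are log2 fold changes of FPKM + 1, KO-titled minus WT-titled, and whiskers their 95% intervals from limma, for the CatSper subunits (red), other proteins of the complex (orange) and genes that set pH, cAMP, membrane potential and calcium in the tail (blue). The dashed line is the median of all tested genes, -0.04, and the intervals of Catsperg1 and Lrrc52 alone leave out 0.

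The intervals give the range of differences compatible with these libraries, on the scale of FPKM + 1. The highest upper limits were those of Efcab9 and Catsper4, both 30.8% above the WT-titled level. The lowest lower limit was that of Catsper2, at -10.2%. For Catsperz the limits were -6.60% and 8.81%, and for Catsperd -8.03% and 7.08%. Single libraries moved several of these values: without KO-titled replicate 2 the log2 fold change was 0.02 for Catsper1, 0.02 for Catsper4 and 0.07 for Efcab9. For Efcab9 it was 0.05 without WT-titled replicate 2 and 0.24 without WT-titled replicate 3. The part of counting error in these shifts was not tested. With the length of the longest coding transcript, the members had about 1300 to 9800 fragments per library, for which counting error is 2.77% to 1.01%. For Catsperd it is 1.81%, above its coefficient of variation in both groups for the values as deposited. For Catsperb it is 1.99%, above the 0.939% of KO-titled libraries and below the 6.81% of WT-titled libraries.

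Library by library, KO-titled replicate 2 and WT-titled replicate 2 stood at the ends for several of the genes. KO-titled replicate 2 held the highest value of 7 of the 10 genes (Catsper1, Catsper3, Catsper4, Catsperg1, Catsperg2, Catsperz and Efcab9), whereas it held the highest value of 19.3% of all tested genes. WT-titled replicate 2 held the lowest value of 4 of the 10 (Catsper3, Catsper4, Catsperg1 and Efcab9) and of 16.3% of all tested genes. Efcab9 spanned 0.49 and Catsper4 0.47 on the log2 scale from lowest to highest library, while Catsper2, Catsperb, Catsperz and Catsperd spanned 0.04 to 0.18. With equal library totals KO-titled replicate 2 was highest for 5 members (15.4% of all tested genes) and WT-titled replicate 2 lowest for 4 (15.6% of all). With upper-quartile scaling these counts were 7 (22.8% of all) and 6 (22.6% of all), and with median-of-ratios scaling 8 (26.1% of all) and 7 (26.5% of all).

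**Figure D4:**
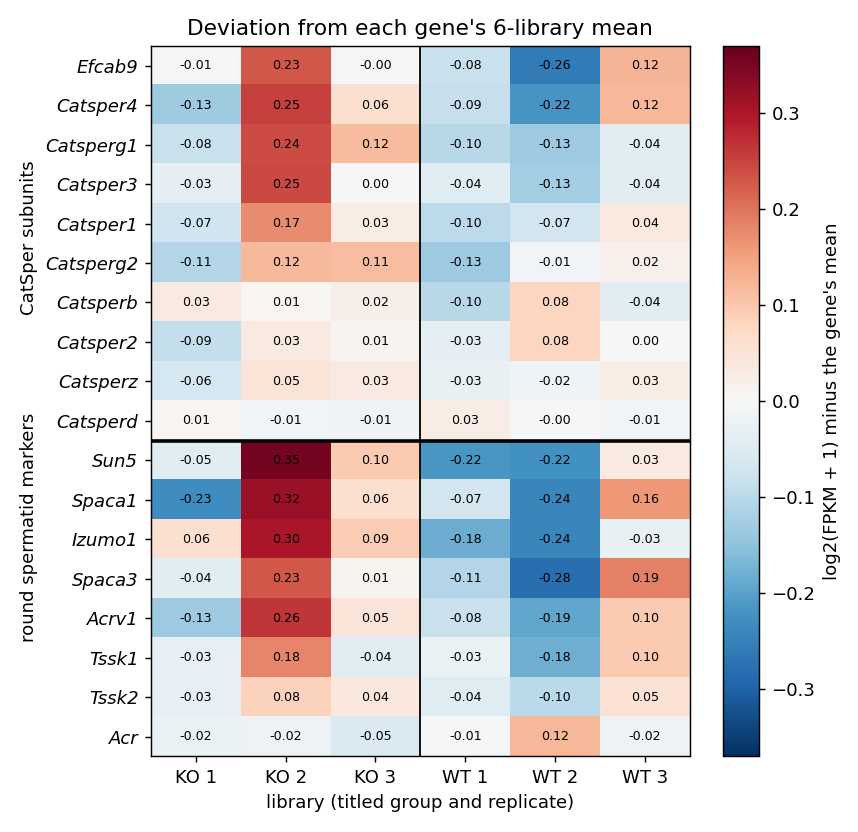
Each cell is log2(FPKM + 1) of a gene in 1 library minus the mean of that gene over the 6 libraries, for the CatSper subunits (above the line, by range) and 8 round spermatid markers (below it). Efcab9, Catsper4, Catsperg1, Catsper3 and Catsper1 are highest in KO-titled replicate 2, as are 7 of the 8 markers.

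Markers of several cell types differed between the same libraries. Most of those of spermatids went in the direction of the CatSper genes that were highest in KO-titled replicate 2. Those of some somatic cells went in the other direction, more so for macrophage and peritubular genes than for Leydig genes. Catsper2 and Catsperb did not follow the spermatid markers: each was highest in WT-titled replicate 2, 0.08 above its mean on the log2 scale. Catsperd was highest in WT-titled replicate 1. Of 8 round spermatid markers, all tested, 7 were highest in KO-titled replicate 2 and 7 lowest in WT-titled replicate 2, and none was at 0. Their summed level was 959 to 1135 FPKM in KO-titled libraries and 908 to 1058 FPKM in WT-titled libraries. Acrv1, an acrosome gene, deviated from its mean by 0.26 in KO-titled replicate 2 and by -0.19 in WT-titled replicate 2 on the log2 scale. Efcab9 deviated by 0.23 and -0.26 in the same libraries. Acr, an acrosome gene too, went the other way, at -0.02 and 0.12, and was highest in WT-titled replicate 2. By limma 0 of the 8 markers passed (2 had an unadjusted p under 0.05, both higher), with a median log2 fold change of 0.11. Of the 10 condensing spermatid genes, 7 were highest in KO-titled replicate 2 and 7 lowest in WT-titled replicate 2. Their median log2 fold change was 0.10, with 0 passing by limma (5 had an unadjusted p under 0.05, each higher). Beside both spermatid lists, 5.38% of all tested genes had such a p and were higher in KO-titled libraries. Of 7 macrophage genes, 6 were highest in WT-titled replicate 2 and 4 lowest in KO-titled replicate 2. Of 5 peritubular genes the counts were 4 and 3, and of 8 Sertoli genes 4 and 4. Of 7 Leydig genes they were 2 and 0, of 9 spermatocyte genes 4 and 3, and of 8 spermatogonial genes 2 and 2. WT-titled replicate 2 was the highest library for 36.7% of all tested genes, and KO-titled replicate 2 the lowest for 30.1%. The part of these cells in the CatSper values was not tested.

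Other proteins reported in the CatSper complex were taken from a list of 8 symbols, of which 6 were analysed here. By limma 0 of these 6 passed, and 0 had an unadjusted p under 0.05, with a median log2 fold change of 0.04. Catspere1 was at 13.2, 14.9 and 17.5 FPKM in KO-titled libraries and at 13.7, 13.6 and 15.5 FPKM in WT-titled libraries (log2 fold change 0.08, limma adjusted p = 0.690). Catspere2 was at 10.9, 13.5 and 14.7 FPKM in KO-titled libraries and at 11.2, 10.4 and 13.5 FPKM in WT-titled libraries (log2 fold change 0.14, limma adjusted p = 0.584). These genes of the epsilon subunit are near copies too, with 93.1% identity over 96.9% of the Catspere1 transcript, and GENCODE M21 lists Catspere1 as an unprocessed pseudogene. Their sum, 25.9 ± 2.64 FPKM in WT-titled libraries, was below that of the gamma pair, 57.8 ± 2.24 FPKM (SD, n = 3), in every library.

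C2cd6, which encodes a C2 domain protein that brings the channel to the tail, was the highest of this list. It was at 129, 126 and 124 FPKM in KO-titled libraries and at 129, 137 and 129 FPKM in WT-titled libraries (log2 fold change -0.06, interval -0.17 to 0.05, limma adjusted p = 0.573). Tmem262, a small membrane protein of the complex, varied most: it was at 32.3, 44.3 and 33.7 FPKM in KO-titled libraries and at 34.6, 26.6 and 37.6 FPKM in WT-titled libraries. Like Catsper3, Catsper4, Catsperg1 and Efcab9, it was highest in KO-titled replicate 2 and lowest in WT-titled replicate 2 (log2 fold change 0.15, interval -0.23 to 0.54, limma adjusted p = 0.651). Exons of Tmem262 overlap those of Zfpl1 on the opposite strand. The transporter gene Slco6c1 was at 43.5 ± 2.98 FPKM in KO-titled libraries and 44.1 ± 3.25 FPKM in WT-titled libraries (log2 fold change -0.02, limma adjusted p = 0.915). Trim69, a ubiquitin ligase gene, was at 64.9 ± 1.93 and 65.4 ± 0.496 FPKM (SD, n = 3; log2 fold change -0.01, limma adjusted p = 0.935). The sign of the Slco6c1 and Trim69 values turned with upper-quartile and median-of-ratios scaling.

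A list of 18 genes that set pH, cAMP, membrane potential and calcium in the sperm tail was examined next, because these act on the channel or on the calcium it admits. Of 15 tested, 0 passed by limma (1 had an unadjusted p under 0.05, and was higher), and the median log2 fold change was 0.01. The smallest p was that of Lrrc52, which encodes the partner of the sperm potassium channel KCNU1. Lrrc52 was at 22.7, 25.5 and 22.3 FPKM in KO-titled libraries and at 19.9, 19.5 and 22.3 FPKM in WT-titled libraries. Its groups did not overlap, although the nearest libraries, KO-titled replicate 3 and WT-titled replicate 3, were almost level (log2 fold change 0.19, unadjusted p = 0.0304 and adjusted p = 0.296 in limma). Kcnu1 itself was at 21.9, 24.5 and 21.9 FPKM in KO-titled libraries and at 20.6, 19.3 and 22.1 FPKM in WT-titled libraries (log2 fold change 0.13, limma adjusted p = 0.405). Adcy10, the soluble adenylyl cyclase that makes cAMP in sperm, was at 59.7, 55.3 and 55.2 FPKM in KO-titled libraries and at 57.3, 64.0 and 58.6 FPKM in WT-titled libraries (log2 fold change -0.08, limma adjusted p = 0.549). The proton channel gene Hvcn1 was listed at 0 in all 6 libraries. The sodium-proton exchanger gene Slc9b2 and the anion exchanger gene Slc26a3 were at or below 0.0840 FPKM and were not tested.

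Sequence just upstream of the members was compared as a feature that the choice of genes did not use. RefSeq windows (GRCm38.p6) were matched for 8 of the 10 genes by symbol, in 10 windows, since Catsperd and Catsperg1 have more than 1 start. The 250 bases before each start were searched on both strands for 6 motifs. The cAMP response element TGACGTCA was in none of the 10 windows and in 1.5% of all 32851 windows of the same length. Its core TGACG, which the full element contains, was in windows of Catsper2 and Catsperd and in 17.8% of all windows. CCAAT was in windows of Catsper2, Catsperb and Catsperz (33.8% of all), TATAAA in a window of Catsperg1 (12.4% of all) and GTTGCC in none (10.4% of all). The X-box, a palindromic site of RFX factors, was in 1 window of Catsperg1 and in 0.1% of all windows. The first 5 motifs were searched together, and the X-box was added only after the Catsperg1 window had been read, so its match there was known when it was chosen. These windows are printed for the member that was steadiest as deposited and for the member with the largest difference. The core (3 matches) is in capitals for the upstream start of Catsperd (chr17:56626797-56627046, plus strand) and the X-box in capitals for Catsperg1 (chr7:29214034-29214283, minus strand):
Catsperd: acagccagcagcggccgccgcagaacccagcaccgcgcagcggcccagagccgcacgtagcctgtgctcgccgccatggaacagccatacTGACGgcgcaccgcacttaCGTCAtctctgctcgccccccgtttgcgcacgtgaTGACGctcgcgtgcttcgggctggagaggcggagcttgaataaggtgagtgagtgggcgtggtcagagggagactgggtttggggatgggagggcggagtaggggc
Catsperg1: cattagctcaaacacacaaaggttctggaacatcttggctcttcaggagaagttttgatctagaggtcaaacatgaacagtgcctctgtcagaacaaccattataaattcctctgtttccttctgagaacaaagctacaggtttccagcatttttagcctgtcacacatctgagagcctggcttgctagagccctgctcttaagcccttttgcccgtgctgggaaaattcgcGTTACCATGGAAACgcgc
The other Catsperd window, directly before the gene start given above (chr17:56627893-56628142), holds 0 matches to the core, and the other Catsperg1 window (chr7:29210926-29211175) no X-box. A match is a description of letters in the window, and binding was not measured in these libraries.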

How the data were processed

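RNA was extracted with Trizol and made into directional libraries, per the labels' protocols. The submitters' processing notes name HISAT2 and mm10. The quantifier, its annotation and its use of strand are not given here. The deposited values were taken as FPKM: value times length, in genes with 1 transcript, clusters at whole steps (72 to 93 genes a library at 1 step, 36 to 60 at 2, 3 to 8 at 1.5, within 0.02 in log10). That step gave the depth, at which 3 fragments on 1 kb are 0.0768 to 0.11 FPKM (counting error only).

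Rows sharing a symbol were summed (333 of 25165 symbols, no CatSper gene). log2(FPKM + 1) was tested in limma 3.58.1 (R 4.3.3; trend, robust) where either group averaged 1 FPKM, with Benjamini-Hochberg adjustment, after a test on simulated data. This scale understates the change of low genes. Intervals are 95% for single genes. Members, lists and tests were chosen with earlier results of these data known. Other genes were named by rule: the complex list, called pathway genes and the 3 with the smallest p, the target, and the 5 most like the members. Kcnk4, Pdia3, Acr and Acrv1 were named after their values were seen. The X-box was added to the promoter motifs after a sequence was read. Copies were found with BLAST 2.17.0 and aligned with Biopython 1.88. Plots used matplotlib 3.10.9.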

Additional observations from a re-analysis of the deposited data

How the results depend on the processing

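No CatSper gene was called under any of the 15 alternatives run, and the smallest limma adjusted p of a member in them was 0.126 (Catsperg1 without KO-titled replicate 1). Of 150 member values, 141 kept their sign and 9 turned, all of them close to 0. With equal library totals Catsperz was at -0.0017. With upper-quartile scaling Catsperd was at 0.019, Slco6c1 at 0.012 and Trim69 at 0.021, and with median-of-ratios scaling Catsper2 was at 0.012, Catsperd at 0.031, Slco6c1 at 0.025 and Trim69 at 0.033. Leaving out each library in turn gave -0.056 to 0.0062 for Catsper2, -0.00070 to 0.091 for Catsperb, -0.0098 to 0.047 for Catsperz, -0.018 to 0.173 for Catspere1, -0.069 to 0.038 for Slco6c1 and -0.027 to 0.014 for Trim69. Values that kept their sign also moved: the range was 0.021 to 0.145 for Catsper1, 0.055 to 0.195 for Catsper3, 0.023 to 0.216 for Catsper4, 0.110 to 0.271 for Catsperg1, 0.037 to 0.158 for Catsperg2, 0.051 to 0.243 for Efcab9, 0.058 to 0.259 for Catspere2, 0.014 to 0.255 for Tmem262 and 0.014 to 0.167 for Cetn4. The number of genes called among all tested was 149, and 88 without a filter, 50 with the replicate number as a block and 73 to 233 with a library left out (73 when KO-titled replicate 2 was dropped, 77 for KO-titled replicate 3, 81 for WT-titled replicate 1 and 233 for WT-titled replicate 3). The median of the members ran from 0.034 to 0.152 with a library left out. The replicate numbers were not taken as pairs: deviations of same-numbered libraries correlated at 0.065, -0.129 and 0.061 over tested genes, and KO-titled replicates 1 and 2 correlated best with other numbers. With the replicate block, Catsperg1 had a limma adjusted p of 0.479. The target kept its direction, and with a pseudocount of 0.01 its log2 fold change was -14.89 (limma adjusted p = 0.0644). The cause of these shifts was not tested.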

Other observations

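Genes whose values ran most like those of the members over the 6 libraries were sought among the other tested genes, by Pearson correlation with the mean standardised value of the 10 genes. That mean was highest in KO-titled replicate 2 (1.03) and lowest in KO-titled replicate 1 (-0.54) and WT-titled replicate 1 (-0.53). The 5 closest genes were Misp3 (r = 0.999), Fam221a (0.999), Golga7b (0.992), Cetn4 (0.992) and Amer2 (0.991), with Spearman's rho from 0.829 to 1.0 and r from 0.976 to 0.997 without KO-titled replicates 1 and 2. They were picked as the highest of the whole table over 6 libraries, so no p is given. Cetn4, a centrin gene, was at 187, 232 and 213 FPKM in KO-titled libraries and at 188, 197 and 208 FPKM in WT-titled libraries (log2 fold change 0.09, limma adjusted p = 0.604). The log2 fold changes of the other 4 were 0.05 to 0.17.

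In the values as deposited, Catsperd varied less between libraries than nearly any gene. Its SD within groups was 0.016 on the log2 scale, beside a median of 0.086 over tested genes, and 0.401% of tested genes had a smaller one (Catsperd was singled out after its values were seen). Its coefficient of variation was 0.846% in KO-titled libraries and 1.39% in WT-titled libraries, below the 1.81% that counting about 3000 fragments would give. Catsper4 lay near the other end, with 91.5% of tested genes below its SD of 0.183. With equal library totals Catsperd deviated from its mean by 0.064 in WT-titled replicate 1 and by -0.043 in KO-titled replicate 2. The SD ranks and coefficients of variation were not computed after scaling.

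Markers of other testis cells were not called. Among spermatogonial, Sertoli, Leydig, peritubular and macrophage genes, 35 were tested and 0 passed by limma, with 5 at an unadjusted p under 0.05, all lower in KO-titled libraries. Over all tested genes the share at that p was 14.3%, with 8.89% lower. The median log2 fold changes of these lists lay between -0.07 (Sertoli) and -0.14 (Leydig), and the 9 spermatocyte genes had a median of 0.0022. Red blood cell genes were present: the list summed to 53.3 to 87.0 FPKM in KO-titled libraries and 62.3 to 82.4 FPKM in WT-titled libraries. Hba-a1, Hba-a2 and Hbb-bt were tested and did not pass, and Hbb-bs was listed at 0 in all libraries.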
